A study of Homo sapiens with 12 samples.

Results

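The genes described here are 48 genes of Wnt and planar polarity signalling, named from a list of ligands, receptors, regulators and transcription factors. A gene entered through probe sets annotated with its symbol alone, and its brightest probe set over 12 arrays represented it. In this way 46 of the 48 genes, of 18417 such genes on the array, were measured; TCF7 and PORCN were not analysed here. All 46 passed the filter on dim probe sets. Their mRNA was assayed with whole-transcript Affymetrix arrays in 2 established human lung cancer lines, A549, from a lung adenocarcinoma, and HTB56, the Calu-6 line. RNA of each line came from the unselected parent (0 rounds, groups A0R and H0R) and from its derivative after 3 rounds in vivo (groups A3R and H3R), selected for tumour growth in the lungs of mice injected through a vein. There were 3 arrays in each of 4 groups, and the labels give every sample as untreated with respect to 5-azacytidine. Neither the labels nor the design text say whether a selected line is 1 clone or a pool, or whether replicates were separate cultures, so p-values measure only the spread between these samples.

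Wnt proteins are secreted lipid-modified ligands that leave the cell on the carrier protein WLS and bind frizzled receptors. With LRP5 or LRP6 as co-receptor, binding stops the AXIN and APC complex from marking beta-catenin (CTNNB1) for destruction, and beta-catenin then works with TCF/LEF factors in the nucleus. Ligands such as WNT5A also act through ROR1, ROR2 and RYK without beta-catenin, and the planar polarity proteins of the VANGL and PRICKLE families orient cells within a sheet and take part in their migration.

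Promoter sequence was taken from RefSeq (GRCh38.p14) as the 250 bases before the start site, for the 34 listed genes that the table holds. The first 3 windows belong to the genes that limma, as described below, called in the same direction in both lines, and capitals mark CpG sites. CXXC5 encodes a CpG-binding zinc finger protein, but its binding to these windows was not tested. The CXXC5 window lies at chr5:139647049-139647298 on the plus strand, the PRICKLE2 window at chr3:64268174-64268423 on the minus strand and the ROR1 window at chr1:63773767-63774016 on the plus strand.
CXXC5: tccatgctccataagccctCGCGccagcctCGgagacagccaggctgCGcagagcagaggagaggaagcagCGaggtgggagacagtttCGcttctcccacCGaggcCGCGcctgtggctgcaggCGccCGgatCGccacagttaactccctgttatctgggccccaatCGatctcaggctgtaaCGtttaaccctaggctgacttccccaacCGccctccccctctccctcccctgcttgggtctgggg
PRICKLE2: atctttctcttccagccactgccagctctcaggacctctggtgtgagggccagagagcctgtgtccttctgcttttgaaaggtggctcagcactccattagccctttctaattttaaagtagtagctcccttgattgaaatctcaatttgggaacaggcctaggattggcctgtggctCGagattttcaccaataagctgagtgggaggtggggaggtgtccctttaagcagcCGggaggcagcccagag
ROR1: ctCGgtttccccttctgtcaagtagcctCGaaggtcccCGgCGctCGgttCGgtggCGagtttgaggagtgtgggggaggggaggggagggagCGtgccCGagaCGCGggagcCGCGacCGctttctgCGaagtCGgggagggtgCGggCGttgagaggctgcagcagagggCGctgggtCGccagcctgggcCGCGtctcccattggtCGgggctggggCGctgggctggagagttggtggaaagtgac
The CXXC5 window holds 15 CpG sites, that of PRICKLE2 2 and that of ROR1 24, against a median of 24 over the 34 listed genes and 18 over 14239 genes of the array. The fourth window, at chr10:52314031-52314280 on the plus strand, belongs to DKK1, and capitals mark a core motif of TCF/LEF factors.
DKK1: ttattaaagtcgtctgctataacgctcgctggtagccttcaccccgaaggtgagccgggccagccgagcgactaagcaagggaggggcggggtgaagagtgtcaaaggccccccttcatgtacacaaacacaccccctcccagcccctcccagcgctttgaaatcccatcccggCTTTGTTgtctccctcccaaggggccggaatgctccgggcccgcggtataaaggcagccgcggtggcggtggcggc
The motifs searched were CTTTGAT and CTTTGTT, 7 bases each, on both strands, with overlapping matches kept. DKK1 was the 1 of 34 listed genes (2.9%) with a match, CTTTGTT at position -76 from the start site, and 5.2% of the 14239 genes had one. A match or a CpG count is a description of the letters in the window.

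Values are log2 RMA signals, on which a difference of 1 is a factor of 2, and calls were made with limma at an adjusted p below 0.05 over 16939 genes. The 20th percentile of an array, used here as a mark of dim signal, averaged 3.48, and the array medians lay between 5.55 and 5.67. The A0R array of replicate 2 stood apart from the other A549 arrays. For 21 genes bright in HTB56 and dim in A549, its signals exceeded the median of the A549 arrays by 0.84 (median over the genes), while the remaining 5 arrays ranged from -0.15 to 0.05. Each A549 change called by limma for a Wnt pathway or target gene is therefore also given without that array. The changes of the cell type markers are not. The epithelial markers checked lay above the 20th percentile on every array, 8 of 8, but CDH1 averaged 9.53 in A0R, 8.68 in A3R, 4.55 in H0R and 4.50 in H3R. In A549 selection came with lower CDH1 (-0.85, limma adjusted p = 0.00875) and higher KRT19 (1.14) and CLDN4 (1.03), 3 of 8 epithelial markers called against 1.75% of all genes. In HTB56 EPCAM was higher (1.02) and KRT7 lower (-0.91), 2 of 8 against 19.5%. Of the fibroblast markers COL1A1 (1.41), COL3A1 (1.29), LUM (1.78) and PDGFRA (0.71) rose with selection in HTB56, 4 of 8 tested, against 8.57% of all genes called higher. Of the leukocyte markers CD68 (0.65) and LYZ (1.66) rose, 2 of 8 against the same share. In A549 limma called 0 of 8 of either kind, with 1 of each at an unadjusted p below 0.05, and with the replicate block 1 of each was called. These were LUM, which rose in A549 (0.91), and CD68, which fell there (-0.44). The log2 of the summed signal of the 10 fibroblast markers on the table was 11.01 to 11.30 in H0R and 11.30 to 11.62 in H3R, and that of 9 leukocyte markers was 9.28 to 9.44 and 9.74 to 10.05. The brightest gene weighs most in such a sum. In HTB56 these were COL6A3, at means of 10.87 and 11.01 and not called (0.14, limma adjusted p = 0.908), and CD68, at 8.86 and 9.51. DCN and FAP, at 2.74 and 3.00 in H3R, and the leukocyte gene PTPRC, at 2.92, lay under the 20th percentile. In A549 the sums were 8.41 to 8.85 and 8.40 to 8.59 for fibroblast markers, 9.40 to 9.65 and 9.20 to 9.32 for leukocyte markers, in A0R and A3R. The part of these markers in the results was not tested, and in bulk RNA more cells of a type and more RNA per cell cannot be told apart.

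The comparison of A3R with A0R tests these genes for a difference after selection of A549. After selection, mRNA was higher for the Wnt carrier gene WLS, the planar polarity gene PRICKLE2, the receptor gene ROR1 and the secreted inhibitor gene DKK1, and lower for CXXC5 and FZD3. That is 4 members higher and 2 lower of 46, or 13%, against 1.75% of all genes tested, 0.945% higher and 0.809% lower. The members were chosen with earlier results of these data known, so the shares here and below describe them and do not test the pathway. With the replicate number as a block the count was also 6, against 3.32% of all genes. Groups without overlap of their arrays were seen for 11 of 46 members and 12.7% of all genes. The median change of the members was -0.017, and that of all genes -0.005. Without A0R replicate 2 or without A3R replicate 1 the count of members called was 3 in place of 6, WLS, PRICKLE2 and CXXC5 each time. Over all genes the count was 192 and 204 in place of 297.

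**Figure D1:**
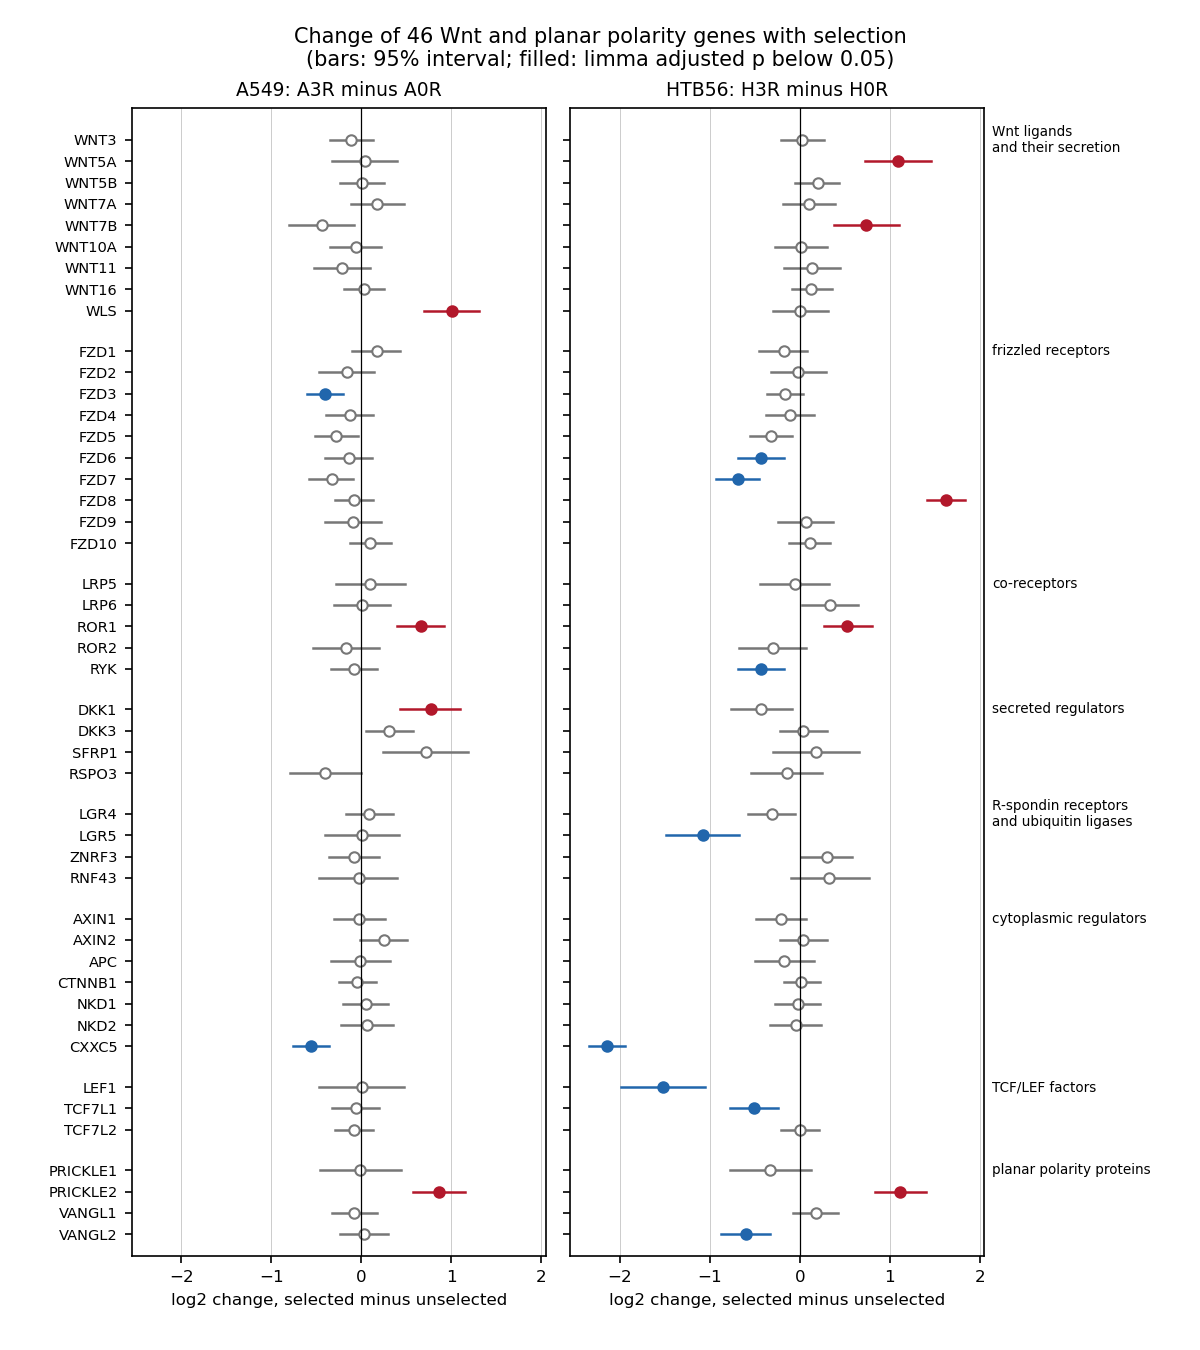
Log2 change with selection of 46 Wnt and planar polarity genes, A3R minus A0R on the left and H3R minus H0R on the right, on 1 shared horizontal axis. Points are limma estimates from 3 against 3 arrays, bars their 95% intervals, and filled red and blue points the genes called higher and lower: 6 in A549 and 13 in HTB56, with CXXC5, PRICKLE2 and ROR1 filled in both panels.

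In the comparison of H3R with H0R, which asks the same of HTB56, FZD8, PRICKLE2, WNT5A, WNT7B and ROR1 were higher in the selected cells, and CXXC5, LEF1, LGR5, FZD7, VANGL2, TCF7L1, RYK and FZD6 were lower. That is 5 members higher and 8 lower of 46, or 28.3%, against 19.5% of all genes, 8.57% higher and 10.9% lower. Groups were free of overlap for 22 of 46 members and 34.3% of all genes. The median change of the members was -0.01, and their median size regardless of sign 0.19, against 0.022 and 0.15 for all genes. With the replicate number as a block 18 members were called, 7 higher and 11 lower, against 28.0% of all genes. The 5 added were FZD5, LRP6, DKK1, LGR4 and ZNRF3.

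**Figure D2:**
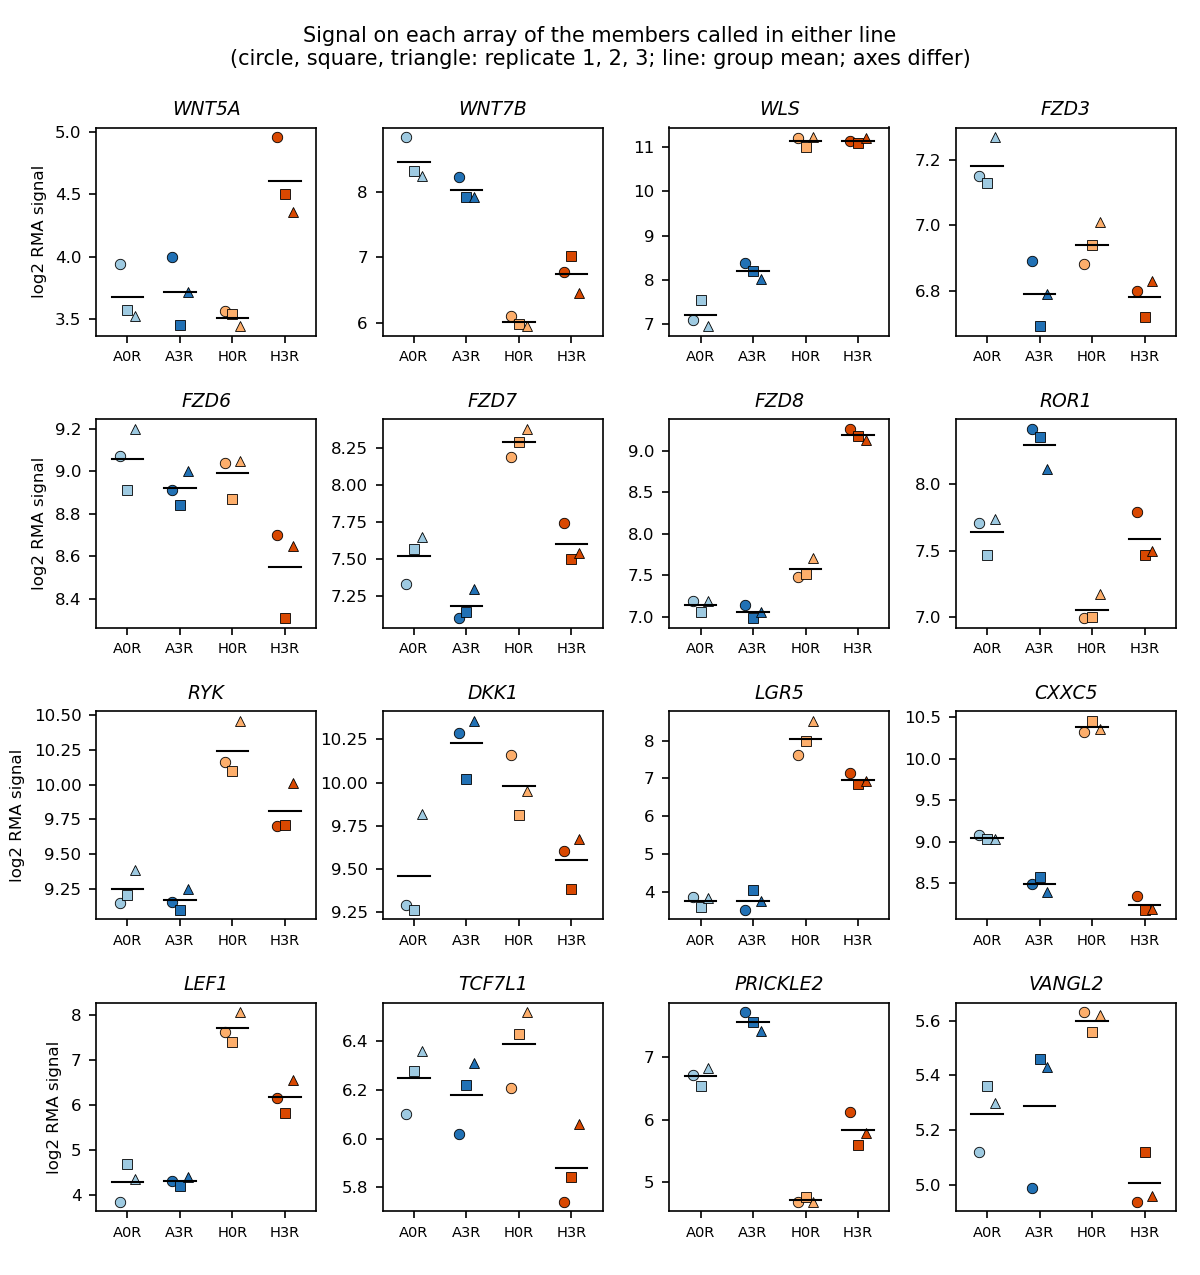
Log2 RMA signal on each of the 12 arrays for the 16 members called in either line, with a separate vertical axis for each gene. Symbols mark replicates 1, 2 and 3 and horizontal lines the group means; WLS stands near 11.15 in both HTB56 groups and moves from 7.20 to 8.21 in A549, while FZD8 moves from 7.57 to 9.20 in HTB56.

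Among the ligands, WNT5A, the best known activator of the branch without beta-catenin, was 3.56, 3.54 and 3.44 on the H0R arrays and 4.96, 4.50 and 4.36 on the H3R arrays. All H3R arrays lay above all H0R arrays (log2 change 1.09, SE 0.17, limma adjusted p = 0.000323). Only 2 of 3 H0R arrays exceeded the 20th percentile, so the size of this rise depends on the background. A549 had a mean of 3.68 ± 0.23 (SD over 3 arrays, as in all values that follow) unselected and 3.72 ± 0.27 selected. WNT7B, a ligand of epithelia that can signal through beta-catenin, read 6.10, 5.97 and 5.94 in H0R and 6.77, 7.02 and 6.45 in H3R. This was a rise of 0.74 (SE 0.17, limma adjusted p = 0.00557) with no overlap. In A549 WNT7B read 8.85, 8.32 and 8.25 in A0R and 8.24, 7.93 and 7.93 in A3R, a change of -0.44 that did not pass the test (adjusted p = 0.332). The A3R arrays all lay below the A0R arrays, the nearest pair by a narrow margin. The other 6 ligands, WNT3, WNT5B, WNT7A, WNT10A, WNT11 and WNT16, were not called in either line. Their changes ran from -0.21 to 0.18 in A549 and from 0.01 to 0.20 in HTB56.

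WLS carries lipid-modified Wnt proteins from the Golgi to the cell surface. It read 7.10, 7.55 and 6.95 in A0R and 8.38, 8.20 and 8.03 in A3R. The highest A0R array was replicate 2, the one that stood apart, and it still lay below every A3R array. The rise was 1.01 (SE 0.14, limma adjusted p = 0.00132), and 1.18 without that array (adjusted p = 0.000269). In HTB56 both means were 11.15, with SDs of 0.12 unselected and 0.06 selected (adjusted p = 1), so the selected A549 cells remained 2.94 below selected HTB56 cells (SE 0.14).

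Of the 10 frizzled receptors, FZD8 showed the largest rise of any member in either line. It read 7.48, 7.52 and 7.71 in H0R and 9.27, 9.18 and 9.14 in H3R. The groups are far apart relative to the spread within them, and the rise was 1.63, a 3.09-fold difference (SE 0.10, limma adjusted p = 4.29e-08). The A549 means of FZD8 were 7.14 ± 0.08 unselected and 7.06 ± 0.08 selected, a change of -0.08 (adjusted p = 0.906). FZD7, a receptor found in many epithelial cancers, went the other way in HTB56, from 8.19, 8.29 and 8.38 to 7.74, 7.50 and 7.54. It fell by 0.69 (SE 0.11, limma adjusted p = 0.000524), and its A549 change of -0.33 did not pass the test (adjusted p = 0.238), although the A3R arrays all lay below the A0R arrays. FZD6 read 9.04, 8.87 and 9.05 in H0R and 8.70, 8.31 and 8.65 in H3R. It fell by 0.43 (SE 0.12, limma adjusted p = 0.0203), a call lost without H0R replicate 1 (0.0727), H0R replicate 3 (0.066) or H3R replicate 2 (0.115). FZD3, a receptor known from axon guidance and planar polarity, read 7.15, 7.13 and 7.27 in A0R and 6.89, 6.69 and 6.79 in A3R. The groups do not overlap and it fell by 0.40 (SE 0.09, limma adjusted p = 0.0491), close to the threshold. That call was lost when any 1 of the 12 arrays was left out, at adjusted p from 0.0587 to 0.211, and with median centring (0.0732); without A0R replicate 2 the change was -0.42. The FZD3 arrays of H3R also lay below those of H0R, at a change of -0.16 that was not called (limma adjusted p = 0.299). FZD5 in HTB56 was 6.62 ± 0.10 in H0R and 6.30 ± 0.15 in H3R and fell just short of the threshold, at -0.32 (adjusted p = 0.0566), or 0.0302 with the replicate block. In A549 FZD5 changed by -0.28 (limma adjusted p = 0.367), and its A3R arrays all lay below the A0R arrays. FZD1, FZD2, FZD4, FZD9 and FZD10 were not called in either line, with changes from -0.16 to 0.17 in A549 and from -0.18 to 0.11 in HTB56.

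Among the co-receptors, ROR1, a receptor tyrosine kinase-like protein that binds WNT5A, rose in both lines. In A549 it read 7.71, 7.47 and 7.74 in A0R and 8.42, 8.36 and 8.12 in A3R. In HTB56 it read 6.99, 7 and 7.17 in H0R and 7.79, 7.47 and 7.50 in H3R. Neither pair of groups overlapped. The rises were 0.66 (SE 0.12, limma adjusted p = 0.0114) and 0.53 (SE 0.12, adjusted p = 0.0063). The difference between them was -0.12, with a 95% interval from -0.50 to 0.25. The A549 call was lost without A0R replicate 2 (change 0.57, adjusted p = 0.0627), A3R replicate 1 (0.0587) or A3R replicate 2 (0.054). RYK, another Wnt receptor of the kinase-like class, read 10.16, 10.10 and 10.46 in H0R and 9.70, 9.71 and 10.01 in H3R. It fell by 0.43 (SE 0.12, limma adjusted p = 0.0218) with the arrays apart, a call lost without H0R replicate 3 (0.103), H3R replicate 1 (0.0861) or H3R replicate 2 (0.0935). LRP6 was 8.64 ± 0.07 in H0R and 8.99 ± 0.14 in H3R, a change of 0.34 that passed with the replicate block (adjusted p = 0.017) but not without it (0.131). LRP5 and ROR2 were not called, with changes from -0.30 to 0.10 over both lines.

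DKK1 encodes a secreted protein that blocks LRP5 and LRP6 and is itself a known target of beta-catenin. It read 9.29, 9.26 and 9.82 in A0R and 10.29, 10.02 and 10.36 in A3R. A0R replicate 3 was the highest of its group, and all A3R arrays lay above it. The rise of 0.77 (SE 0.16, limma adjusted p = 0.0203) lost its call without A0R replicate 1 (0.101), A0R replicate 2 (change 0.67, adjusted p = 0.102), A3R replicate 1 (0.0779) or A3R replicate 3 (0.0797). In HTB56 it read 10.16, 9.81 and 9.95 in H0R and 9.60, 9.38 and 9.67 in H3R. That change of -0.43 passed with the replicate block (adjusted p = 0.0154) but not without it (0.0718). SFRP1, a secreted decoy for Wnt ligands, was close to 6.72 ± 0.04 in A0R and read 7.64, 6.71 and 7.96 in A3R. A3R replicate 2 alone stayed at the unselected level, and the change of 0.72 did not pass (adjusted p = 0.182). Without that array, the one that lacks the rise, it was 1.08 (adjusted p = 0.000939). Of 23 alternative fits, the other 22 did not call SFRP1 in A549, and array weights lowered its change to 0.44 (limma adjusted p = 0.489). DKK3 and RSPO3, which encodes R-spondin 3, an enhancer of Wnt signals, were not called with selection in either line, with changes from -0.40 to 0.31.

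LGR5, a receptor of R-spondins and a well known marker of intestinal stem cells, read 7.62, 7.99 and 8.53 in H0R and 7.13, 6.85 and 6.92 in H3R. The 2 groups were separate, and the log2 signal fell by 1.08 (SE 0.19, limma adjusted p = 0.000976). In A549 it was low in both groups, at 3.76 ± 0.15 and 3.77 ± 0.26, though above the 20th percentile on 3 of 3 arrays in each. The related receptor gene LGR4 was 7.98 ± 0.09 in H0R and 7.67 ± 0.25 in H3R, a change of -0.31 (adjusted p = 0.0953, or 0.0431 with the replicate block). ZNRF3, a ubiquitin ligase that removes frizzled receptors from the surface, moved by 0.30 in HTB56 (adjusted p = 0.136, or 0.0354 with the block). Its partner RNF43 moved by 0.33 (adjusted p = 0.319). None of these 4 genes was called by limma in A549, where their changes ran from -0.08 to 0.09 with 0 of 4 at an unadjusted p below 0.05.

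CXXC5 encodes a zinc finger protein that binds CpG sites and, in the cytoplasm, Dishevelled, where it restrains the beta-catenin branch. It showed the largest fall of any member. It read 10.32, 10.46 and 10.36 in H0R and 8.35, 8.18 and 8.19 in H3R. The groups differ by many times their spread: its log2 signal fell by 2.14, or 4.42-fold (SE 0.09, limma adjusted p = 1.66e-09). In A549 it read 9.08, 9.03 and 9.04 in A0R and 8.49, 8.58 and 8.40 in A3R. This fall of 0.56 (SE 0.09, limma adjusted p = 0.00511) was also free of overlap and was -0.57 without A0R replicate 2. The fold was 1.47, and limma's treat test against a fold of 1.2 did not call it (adjusted p = 0.331). AXIN2, which encodes a scaffold of the destruction complex and is a classic target of beta-catenin, was 6.69 ± 0.13 in A0R and 6.94 ± 0.04 in A3R (change 0.25, adjusted p = 0.528). The A3R arrays of AXIN2 all lay above its A0R arrays, although the change was not called. In HTB56 it was 5.73 ± 0.23 and 5.77 ± 0.09 (adjusted p = 0.894). CTNNB1 was 11.18 ± 0.11 and 11.13 ± 0.09 in A549 and 11.74 ± 0.05 and 11.76 ± 0.06 in HTB56. The changes of CTNNB1 were -0.05 (95% interval -0.25 to 0.16) and 0.02 (-0.18 to 0.23). AXIN1, APC and the Dishevelled antagonists NKD1 and NKD2 were not called, with changes from -0.21 to 0.06 over both lines.

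Both TCF/LEF genes called were lower in selected HTB56 cells. LEF1, a factor that mainly activates beta-catenin targets, read 7.63, 7.40 and 8.06 in H0R and 6.16, 5.82 and 6.56 in H3R. The lowest H0R array lay above the highest H3R array, and the log2 signal fell by 1.52, or 2.87-fold (SE 0.22, limma adjusted p = 0.000187). In A549 LEF1 was 4.29 ± 0.43 in A0R and 4.30 ± 0.10 in A3R. TCF7L1, a factor that mostly represses such targets, read 6.21, 6.43 and 6.52 in H0R and 5.74, 5.84 and 6.06 in H3R, a fall of 0.51 (SE 0.12, limma adjusted p = 0.00931). TCF7L2 was 8.51 ± 0.14 and 8.51 ± 0.06 in HTB56 and changed by -0.08 in A549 (adjusted p = 0.896).

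In the planar polarity group PRICKLE2 rose in both lines and VANGL2 fell in HTB56. PRICKLE2 encodes a cytoplasmic protein that works with the membrane protein VANGL2. It read 6.71, 6.54 and 6.83 in A0R and 7.71, 7.55 and 7.42 in A3R. In HTB56 it read 4.69, 4.77 and 4.69 in H0R and 6.12, 5.6 and 5.79 in H3R. Selected and unselected arrays were separate in both lines, and the H3R level was still below the A0R level. The rises were 0.86 (SE 0.13, limma adjusted p = 0.00228; 0.79 without A0R replicate 2, adjusted p = 0.017) and 1.12 (SE 0.13, adjusted p = 2.996e-05). The difference between them was 0.26, with a 95% interval from -0.14 to 0.66. VANGL2 read 5.63, 5.56 and 5.62 in H0R and 4.94, 5.12 and 4.96 in H3R, a fall of 0.60 (SE 0.12, limma adjusted p = 0.00325). PRICKLE1 and VANGL1 were not called, with changes from -0.33 to 0.18 over both lines.

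Whether the change with selection differed between the lines was tested as the change in HTB56 minus that in A549. This difference was called for 9 of 46 members, or 19.6%, against 11.8% of all genes, 3 with a positive sign (5.22% of all genes) and 6 with a negative one (6.58%). The positive ones were FZD8 (1.71, SE 0.14, limma adjusted p = 2.28e-06), WNT7B (1.18, SE 0.24, 0.00439) and WNT5A (1.05, SE 0.24, 0.00956). The negative ones were CXXC5 (-1.58, SE 0.13, 2.81e-06), LEF1 (-1.53, SE 0.31, 0.0048), DKK1 (-1.2, SE 0.22, 0.0024), LGR5 (-1.09, SE 0.27, 0.0166), WLS (-1.01, SE 0.20, 0.00429) and VANGL2 (-0.63, SE 0.18, 0.0312). In A0R LGR5 (mean 3.76) and LEF1 (4.29) were already low, so a fall as large as that in HTB56 could hardly be seen in A549. Both differences therefore depend on the background. The genes changed in different ways behind this test: CXXC5 fell in both lines and by more in HTB56, WLS rose in A549, and the other called changes apart from DKK1 were those of HTB56. The VANGL2 call was lost without 8 of the 12 arrays, at adjusted p from 0.054 to 0.0821, the exceptions being A0R replicates 2 and 3, A3R replicate 1 and H3R replicate 2. With the replicate block TCF7L1 (-0.44, adjusted p = 0.0076) and RYK (-0.35, 0.037) were also called, against 20.4% of all genes.

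The unselected lines differed in this pathway from the start. H0R and A0R arrays were compared, and 26 of 46 members were called, 15 higher and 11 lower in HTB56, which is 56.5% against 45.2% of all genes (24.9% higher, 20.3% lower). Groups were free of overlap for 32 members and 53.2% of all genes, and the block fit called 32, against 53.7%. A549 had the higher signals of RSPO3, its receptor LGR4 and the ubiquitin ligase RNF43, while HTB56 had those of LGR5, LEF1 and WLS. RSPO3 was 11.01 ± 0.31 in A0R and 5.03 ± 0.17 in H0R, a difference of -5.98 (SE 0.18, limma adjusted p = 3.65e-12), and the H0R value lay below the array median. LGR4 was 11.50 ± 0.03 and 7.98 ± 0.09 (-3.52, SE 0.12), and RNF43 8.55 ± 0.27 and 4.87 ± 0.29 (-3.68, SE 0.20). In the opposite direction LGR5 was 3.76 ± 0.15 in A0R and 8.05 ± 0.46 in H0R (4.28, SE 0.19), WLS 7.20 ± 0.31 and 11.15 ± 0.12 (3.95, SE 0.14) and LEF1 4.29 ± 0.43 and 7.70 ± 0.34 (3.41, SE 0.22). LGR5 and LEF1 were above the 20th percentile on every A549 array but low, so the size of these differences depends on the background. The remaining largest differences below 0 were those of WNT7B (-2.47), PRICKLE2 (-1.98), SFRP1 (-1.39), FZD5 (-1.27), ZNRF3 (-1.12), LRP6 (-0.96) and AXIN2 (-0.96). Above 0 they were CXXC5 (1.33), PRICKLE1 (1.32), RYK (0.99), FZD7 (0.77), FZD4 (0.56), CTNNB1 (0.56) and LRP5 (0.54). The LRP5 call did not hold without A0R replicate 3 (0.0737 by limma, adjusted) or H0R replicate 2 (0.131) and with cyclic loess (0.0674).

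**Figure D3:**
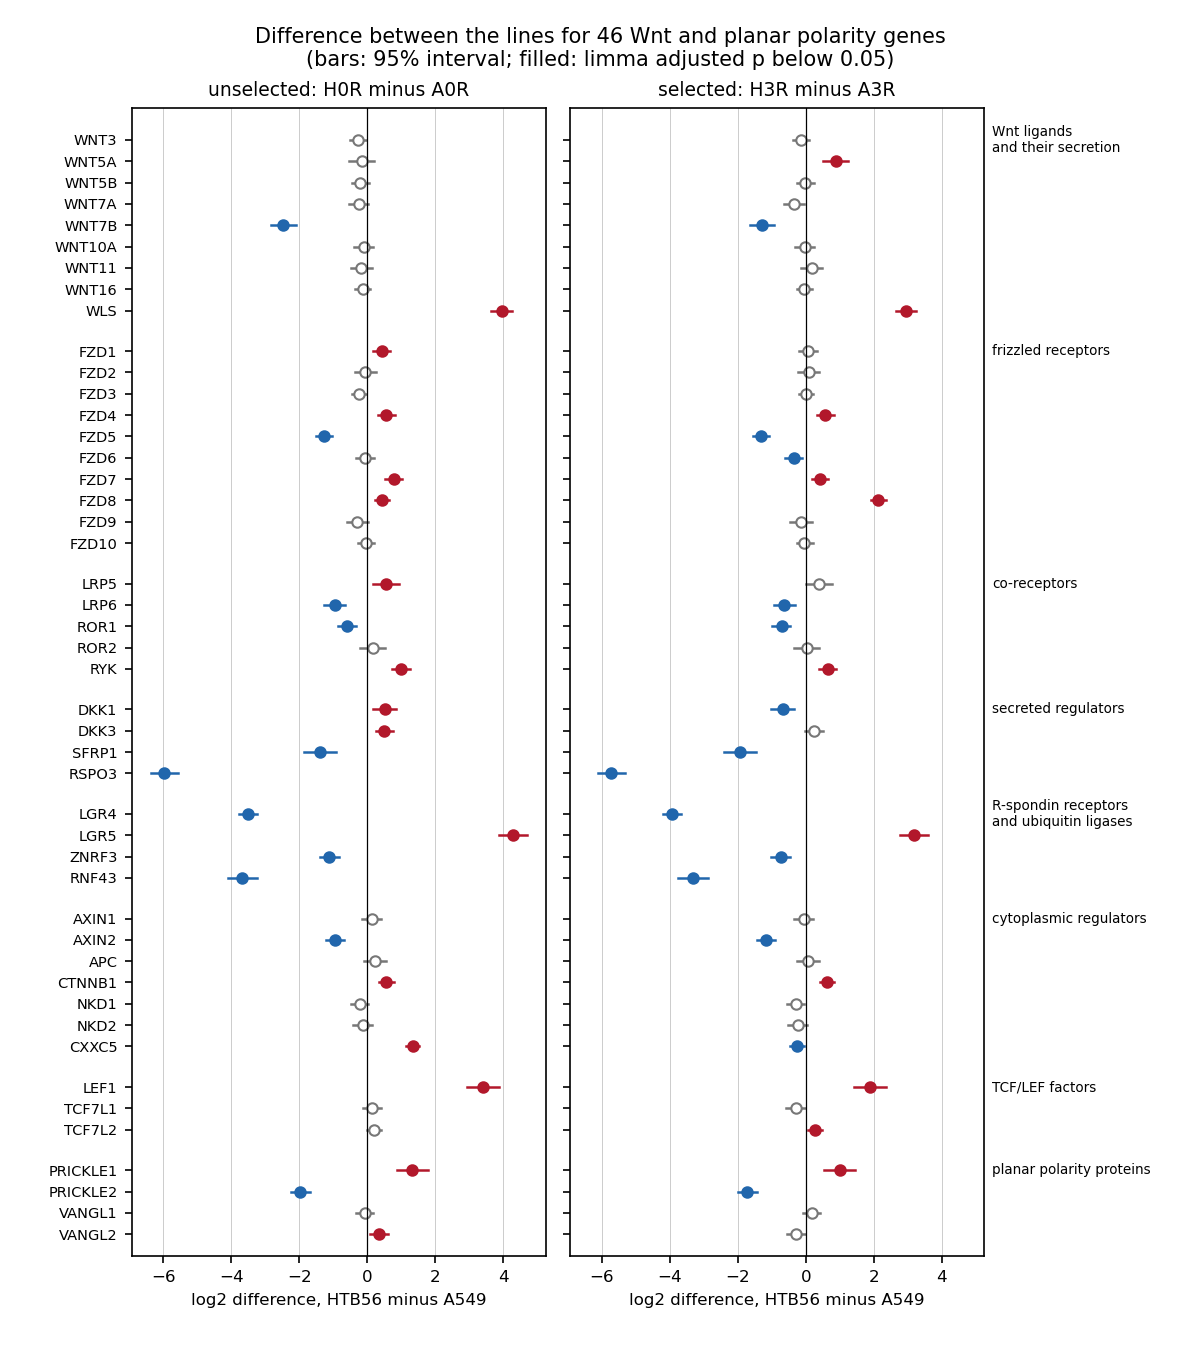
Log2 difference HTB56 minus A549 for 46 Wnt and planar polarity genes, unselected groups on the left and selected groups on the right. Points are limma estimates from 3 against 3 arrays, bars their 95% intervals, and filled points the calls: 26 unselected and 25 selected, with RSPO3 at -5.98 and -5.72 and LGR5 at 4.28 and 3.19.

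Between the selected groups, H3R and A3R, 25 of 46 members were called, 11 higher and 14 lower in HTB56, or 54.3% against 44.6% of all genes (24.9% higher, 19.7% lower). Groups were free of overlap for 26 members and 51.6% of all genes, and the block fit called 30, against 52.7%. This comparison shares its arrays with those of selection above. RSPO3 (-5.72), LGR4 (-3.92), RNF43 (-3.31), LGR5 (3.19) and WLS (2.94) again had the largest differences. FZD8, 0.43 higher in HTB56 before selection, was 2.13 higher after it (SE 0.10, limma adjusted p = 2.94e-10). DKK1 and CXXC5 changed sides. DKK1 was 0.52 higher in H0R than in A0R and 0.68 lower in H3R than in A3R (log2 difference -0.68, limma adjusted p = 0.0023). The first of these DKK1 calls was lost without A0R replicate 1 (0.0602), A0R replicate 2 (0.0664) or H0R replicate 1 (0.0684), and with cyclic loess (0.0597). CXXC5 was 10.38 ± 0.07 in H0R against 9.05 ± 0.02 in A0R, and 8.24 ± 0.09 in H3R against 8.49 ± 0.09 in A3R. The latter difference, -0.25 (SE 0.09, limma adjusted p = 0.0413), was lost without A0R replicate 1 (0.0512), A3R replicate 1 (0.074) or 2 (0.147), H0R replicate 1 (0.0532) or 3 (0.0503), or H3R replicate 2 (0.134) or 3 (0.114), and with median centring (0.0952).

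A list of 88 other Wnt and planar polarity genes was examined beside the members, 83 of them tested. In A549 limma called 1 of the 83 (9 at an unadjusted p below 0.05), or 1.2% against 1.75% of all genes. It was SFRP4, a secreted Wnt decoy, at 6.97, 6.60 and 7.48 in A0R and 6.16, 5.51 and 6.22 in A3R. SFRP4 changed by -1.05 (SE 0.23, limma adjusted p = 0.0309; -1.26 without A0R replicate 2), a call lost on leaving out A0R replicate 1 (0.0896), A0R replicate 3 (0.105), A3R replicate 1 (0.0587) or A3R replicate 2 (0.141). With the replicate block 2 of the 83 were called, against 3.32% of all genes; the one added was GPC6, lower in A549 (-0.59, adjusted p = 0.0178 with the block and 0.167 without). In HTB56 6 of the 83 were higher and 15 lower, or 25.3% against 19.5% of all genes, and with the block 10 were higher and 19 lower, against 28.0%. The largest changes were those of the cell surface proteoglycan genes GPC4 and GPC6, which went opposite ways. GPC4 read 6.24, 6.22 and 5.97 in H0R and 3.24, 3.31 and 3.61 in H3R, where it is at background (-2.76, SE 0.13, limma adjusted p = 3.6e-09). GPC6 read 4.51, 4.30 and 4.97 in H0R and 7.09, 6.95 and 7.12 in H3R (2.46, SE 0.18, adjusted p = 2.9e-07). TLE4, a co-repressor that binds TCF/LEF factors, went from 7.97, 7.93 and 8.11 to 5.87, 5.70 and 5.84 (-2.20, SE 0.20). JUP, which encodes plakoglobin, the junction protein related to beta-catenin, rose by 1.37 (SE 0.18), and CTBP2, another co-repressor gene, by 0.84 (SE 0.11).

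The other genes of this list called lower in HTB56 changed by less. FAT4, an atypical cadherin of tissue polarity, changed by -1.28, DIXDC1, a partner of Dishevelled and AXIN, by -1.21 and TNIK, a kinase bound to TCF7L2, by -1.05. SOSTDC1, a secreted antagonist, changed by -0.91, the formin gene DAAM1 by -0.82, INTU by -0.74, MAPK8, which encodes the kinase JNK1, by -0.71 and CXXC4, a relative of CXXC5, by -0.64. The kinase genes CSNK1G2 (-0.55), NLK (-0.47) and GSK3B (-0.43) and the genes DVL3 (-0.49) and BCL9 (-0.54) completed the 15. The DVL3 call did not hold without H0R replicate 2 (0.0725 by limma, adjusted) or H3R replicate 2 (0.0564), and BCL9 without H0R replicate 2 (0.062) or H3R replicate 3 (0.0622). The other 3 rises were small: TNKS2 (0.41), NFATC2 (0.34) and DKK2 (0.30). TNKS2 lost its call without H0R replicate 3 (0.0573), NFATC2 without H0R replicate 2 (0.0559) or 3 (0.0985) or H3R replicate 1 (0.0525) or 3 (0.0831) and with median centring (0.0686), and DKK2 without 9 of the 12 arrays and with median centring (0.135).

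A second list held 30 genes known as Wnt targets in some tissue, 28 of them tested, and shares 2 genes with the first. In A549 3 of the 28 were higher, or 10.7% against 1.75%: PTGS2 (0.85, SE 0.16), the matrix protease gene MMP7 (0.81, SE 0.15) and the cell adhesion gene NRCAM (0.72, SE 0.16). Without A0R replicate 2 these changes were 0.87, 0.90 and 0.71. The NRCAM call was lost without that array (limma adjusted p = 0.105), without the other A0R arrays (0.0698 and 0.0891) and without A3R replicate 1 (0.126) or 2 (0.144). PTGS2 lost its call without A0R replicate 1 (0.061), A3R replicate 1 (0.0588) or A3R replicate 2 (0.0644), and MMP7 without A3R replicate 3 (0.0532). With the replicate block 3 were higher and 1 lower in A549, against 3.32% of all genes. The gene added was TBX3 (-0.37, limma adjusted p = 0.0332 with the block and 0.099 without). In HTB56 4 were higher and 4 lower, or 28.6% against 19.5%. With the block 6 were higher and 4 lower of the 28, against 28.0% of all genes. SALL4 (1.11), TNFRSF19 (0.76), TBX3 (0.70) and KLF5 (0.37) rose, while PTGS2 (-1.46), ID2 (-1.30), L1CAM (-0.63) and CD44 (-0.40) fell. PTGS2 thus moved in opposite directions in the lines, from 9.42, 9.56 and 9.58 to 10.47, 10.54 and 10.10 in A549 and from 9.19, 9.35 and 9.18 to 8.12, 7.80 and 7.40 in HTB56 (difference of the changes -2.31, SE 0.23, limma adjusted p = 1.16e-05). KLF5 lost its call without H0R replicate 1 (0.063 by limma, adjusted) or 3 (0.0562) or H3R replicate 3 (0.0648), and L1CAM, whose arrays overlap, without H0R replicate 1 (0.069) or 2 (0.0864) or H3R replicate 3 (0.0794). CD44 lost its call without H0R replicate 1 (0.0532) or 2 (0.0614) or H3R replicate 2 (0.0534) or 3 (0.0535). The median change of the 28 genes was 0.007 in A549 and 0.134 in HTB56, against -0.005 and 0.022 for all genes.

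**Figure D4:**
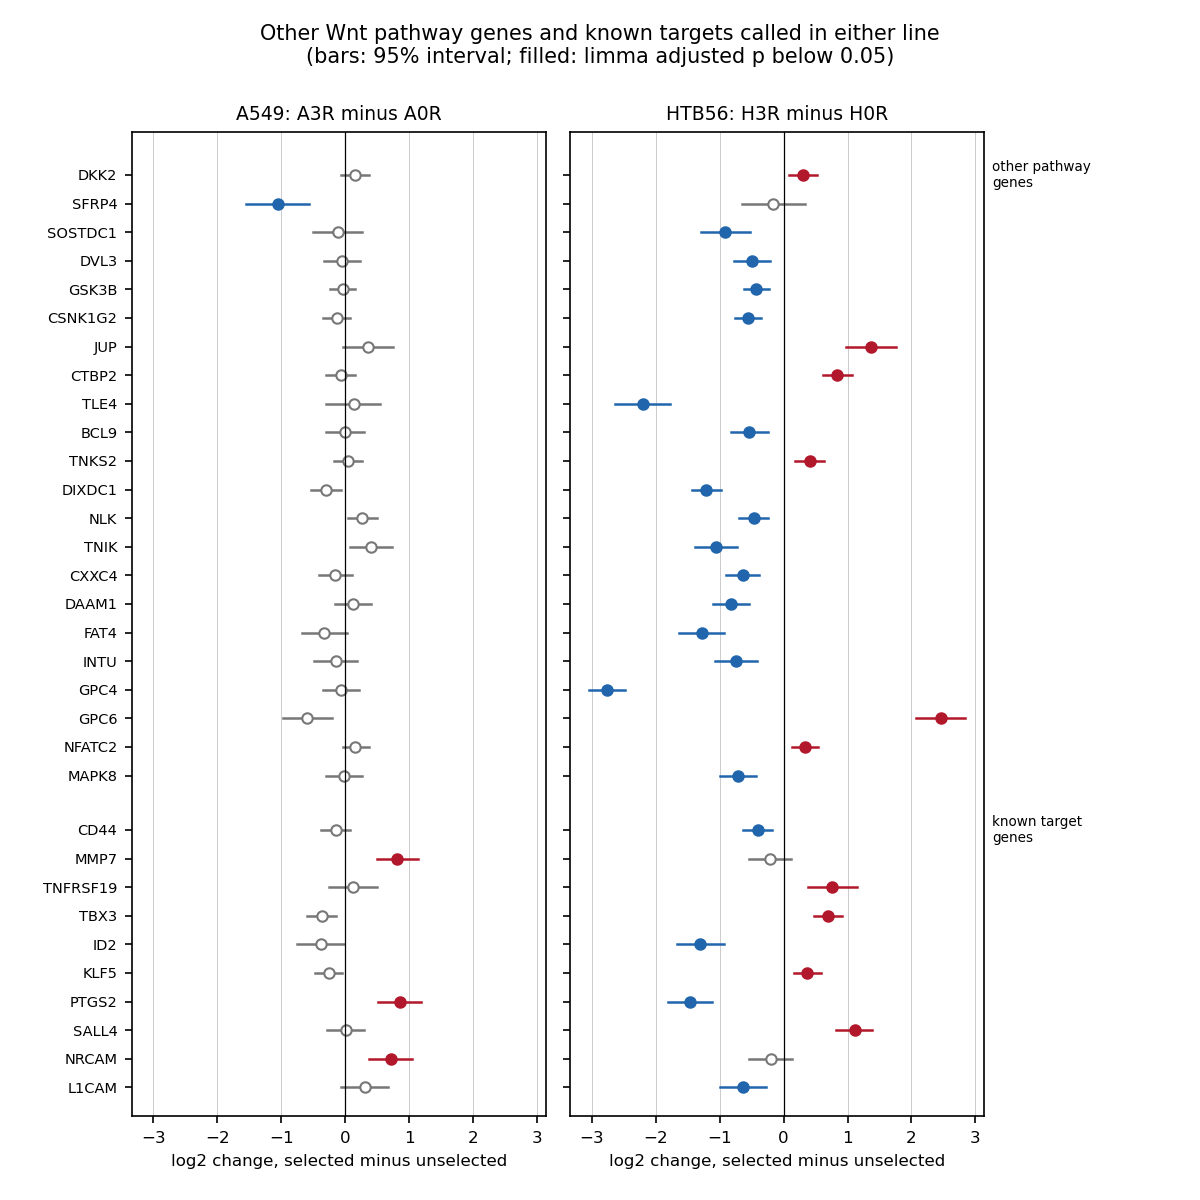
Log2 change with selection of the 32 further genes called in either line, 22 other pathway genes above and 10 known targets below, A549 on the left and HTB56 on the right. Points are limma estimates with 95% intervals and filled points are called; GPC4 at -2.76 and GPC6 at 2.46 in HTB56 stand furthest from 0, and PTGS2 lies at 0.85 in A549 and -1.46 in HTB56.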

How the data were processed

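The deposited table holds log2 signals of 33297 probe sets on 12 arrays, which the authors deposited after RMA (the submitters' processing notes name Affymetrix Expression Console, with no version). RMA adjusts background and quantile-normalizes arrays, so dim differences are compressed and a uniform shift of all mRNA is removed. There were 0 missing values, 0 unused columns and 0 identical pairs of arrays.

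Platform annotation gave 1 symbol to 19460 probe sets; 1754 with several and 12083 with none entered no named result. The brightest probe set stood for a gene, which was tested where this exceeded the array's 20th percentile on at least 3 of 12 arrays (16939 genes; DKK3 was the member with 2 probe sets). The fit used R 4.3.3 and limma 3.58.1 (lmFit, eBayes, 1 mean per group over 12 arrays, two-sided, Benjamini-Hochberg over all genes, threshold 0.05); the code was tested on simulated data. The number of arrays limits the precision. Figures were drawn with matplotlib 3.10.9 under Python 3.11.15.

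The members and lists were chosen with earlier results of these data known, so their shares called are no test of enrichment. Members called with selection or in the difference of the changes are given by array, the 10 largest of each sign between H0R and A0R by value, and list genes where called.

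Groups share replicate numbers. Deviations from group means correlated across genes at 0.16 to 0.549 between same-numbered arrays and at -0.417 to 0.204 otherwise, and all 12 arrays had their best correlation with an array of the same number. A fit with the number as a block is therefore given where it changes the call of a member. For the further lists it is given as counts, with the added genes named for A549.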

Additional observations from a re-analysis of the deposited data

Results flagged for a closer look

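For 9 members the change with selection differed between HTB56 and A549 in limma's test of the difference itself. The difference (HTB56 minus A549, log2) was 1.71 for FZD8, 1.18 for WNT7B, 1.05 for WNT5A, -0.63 for VANGL2, -1.01 for WLS, -1.09 for LGR5, -1.2 for DKK1, -1.53 for LEF1 and -1.58 for CXXC5. LGR5 and LEF1 were low in A549, where a further fall could hardly be seen.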

How the results depend on the processing

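Over 23 alternatives no called member changed direction in the comparisons followed. Of the 19 member calls with selection, 9 were kept under every alternative run that tested the gene: WLS and PRICKLE2 in A549, and WNT5A, FZD7, FZD8, LGR5, LEF1, PRICKLE2 and CXXC5 in HTB56. WNT5A and VANGL2 were not tested under the filter at the array median. Fitted to the 6 A549 arrays alone, limma called 4 members and 179 of all genes in A549. DKK1 (adjusted p = 0.0658) and FZD3 (0.206) lost their calls, as did SFRP4 (0.073) and NRCAM (0.0644) of the further lists. In HTB56 the fit to its 6 arrays added LRP6 (0.0468) and DKK1 (0.0349). The 6 members called in A549 became 3 at an adjusted p below 0.01 and 2, WLS and PRICKLE2, with treat against a fold of 1.2. The 13 of HTB56 became the 7 named above with treat. Over all genes the A549 calls went from 297 to 142 and 104, and those of HTB56 from 3298 to 1189 with treat. With 1 array left out the count ran from 3 to 5 in A549, 11 to 14 in HTB56, 8 to 9 for the difference of the changes, 23 to 27 between unselected and 23 to 28 between selected lines. Over all genes it ran from 179 to 286, 2491 to 3432, 1524 to 1951, 6705 to 7805 and 6656 to 7669 in that order. With the replicate block the member counts were 6, 18, 11, 32 and 30 in that order, and all member calls made without the block were kept. The 6 added between unselected lines were WNT3, WNT7A, FZD3, FZD9, NKD1 and APC, and the 5 added between selected lines LRP5, NKD1, TCF7L1, VANGL2 and WNT7A. The size of a difference depends on the background where a group is dim or little above that, as for the rise of WNT5A in HTB56 and the difference of LGR5 between the lines.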
